A study of Homo sapiens with 2 samples.

Results

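The NF-kB transcription factor subunits and their best known feedback targets were examined in MOLM-13, a cell line of monocytic acute myeloid leukaemia (AML), as 10 genes taken by name from the 50868 genes of the deposited table. They comprise the 5 subunits NFKB1, NFKB2, RELA, RELB and REL, the 3 feedback inhibitors NFKBIA, NFKBIE and TNFAIP3, and BIRC3 and TRAF1, which act at TNF family receptors and are themselves NF-kB targets. Total RNA was sequenced from 1 Vector library, labelled as the over-expression control, and 1 library labelled as over-expressing UNC5B (OE-UNC5B), to see which adhesion and proliferation genes moved with the netrin receptor UNC5B. Both groups were the same line grown in serum-containing medium, and the study's methods describe a lentiviral UNC5B construct with a FLAG tag, driven by the CMV promoter, and selection with puromycin. Whether the cells were a clone or a pool is not given in the sources used here. UNC5B itself had 0 reads in both libraries. With 3 reads taken as the limit, this allows up to 0.219 CPM (reads per 1e+06 reads) in Vector and 0.192 CPM in the other. These limits use library totals without scaling and cover counting error only. The second library is therefore called the OE-labelled library, and every direction given here rests on its label.

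NF-kB works as dimers of its 5 subunits, which share a DNA-binding Rel homology region. In the classical arm, dimers such as p50 (made from NFKB1) with RELA or REL are held in the cytoplasm by IkB proteins until the IKK kinases mark those inhibitors for destruction. In the alternative arm, p52 (made from NFKB2) pairs with RELB. The freed dimers bind kB sites and switch on, among other genes, their own inhibitors and several of their own subunits, which closes feedback loops. In monocytic cells the pathway is best known for driving cytokine and survival genes after TNF or Toll-like receptor signals.

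Promoter letters that match the kB motif are shown because binding of NF-kB at such sites is how feedback targets are known to be switched on. Promoter windows of RefSeq (GRCh38.p14), from 250 bases before to 50 after a start site, were held for 8 of the 10 genes, in 14 windows, the exceptions being RELB and NFKBIE. The loose motif GGGNNNNNCC, read on both strands, was in all 14 windows, but also in 58.7% of all 35116 windows. The consensus kB motif, which further restricts 4 of the inner bases and is also read on both strands, was in 7 of the 14 windows and in 5.91% of all windows. Counted by gene, 6 of the 8 held it, against 7.09% of all 27305 genes with a window. The members were picked as subunits and best known feedback targets, so this comparison describes them and tests nothing. They also had more windows per gene, 14 over 8 genes against 35116 over 27305. RELA and TRAF1 were the members without it, which says only that these letters are not in these windows. A match is a string of letters and not a measured binding site. For each of the 6 genes, the window with most matched bases was used. NFKB2 also held matches in another window, 176 to 167 and 21 to 12 bases before its start, which are not printed. From before the start site, 100 bases are given 5′ to 3′ on the strand of the gene, with the consensus matches in capitals, overlapping matches merged.
NFKB1, chr4:102501249-102501348: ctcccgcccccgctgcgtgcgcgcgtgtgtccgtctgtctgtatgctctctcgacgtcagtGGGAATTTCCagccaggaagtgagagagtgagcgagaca
NFKB2, chr10:102394451-102394550: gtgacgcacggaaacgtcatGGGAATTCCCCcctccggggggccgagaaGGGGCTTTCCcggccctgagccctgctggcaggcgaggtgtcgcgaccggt
REL, chr2:60881464-60881563: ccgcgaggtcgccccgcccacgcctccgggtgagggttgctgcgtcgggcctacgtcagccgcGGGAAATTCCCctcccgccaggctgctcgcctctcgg
NFKBIA, chr14:35404760-35404859: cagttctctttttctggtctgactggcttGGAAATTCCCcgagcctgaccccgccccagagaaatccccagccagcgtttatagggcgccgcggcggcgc
TNFAIP3, chr6:137867149-137867248: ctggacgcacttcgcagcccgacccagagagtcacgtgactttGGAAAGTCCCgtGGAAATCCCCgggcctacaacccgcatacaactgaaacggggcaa
BIRC3, chr11:102317265-102317364: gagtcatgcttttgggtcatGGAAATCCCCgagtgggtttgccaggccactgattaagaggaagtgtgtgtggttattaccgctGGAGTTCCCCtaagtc

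Distances are counted from the RefSeq start of each printed window. That start can lie inside the gene span given below, and in NFKB2, REL and TNFAIP3 the matches lie inside that span as well. Of these stretches, TNFAIP3 holds a tandem pair, 67 to 58 and 55 to 46 bases before the start. NFKB2 and BIRC3 each hold 2 separate matched stretches. The matches of NFKB1 and REL lie at similar distances, 49 to 40 bases before the start in NFKB1 and within 47 to 37 bases before it in REL. The match of NFKBIA lies 81 to 72 bases before the start.

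The Vector library held 13715566 counted reads and the OE-labelled library 15637137, and the 15384 genes that reached 10 reads in total were compared. There was 1 library in each group, so no difference could be checked against replicates and the conditions could not be tested. Intervals are 95% intervals from the reads and cover counting error only. The myeloid label held in the markers, since all 10 AML marker genes had reads, from 247 in Vector for MEIS1 to 51742 in Vector for LYZ. Of 25 markers of T, NK, B, erythroid, epithelial, fibroblast and endothelial cells, 18 had fewer than 10 reads in total and 11 had 0. Their summed level on library totals was 153 CPM in Vector and 123 CPM in the OE-labelled library, most of it from PECAM1, NKG7 and CD3D. Of the AML markers, MPO (3363 and 1553 reads) and LYZ (51742 and 23700 reads) were lower by 2-fold or more in the OE-labelled library and 0 were higher by as much. By counting interval 5 of the 10 were higher and 4 lower, against 25.1% and 26.3% of all genes compared. The median log2 fold change of the 10 was 0.05. The part of these shifts in the results was not tested.

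Levels were first compared among the 10 genes within each library. They are given as CPM per kilobase of the canonical GENCODE 44 transcript, because the deposited FPKM values rest on longer gene lengths. For these levels CPM is taken on scaled reads. The length behind the FPKM was 7.11 times the canonical transcript for RELA and 1.14 times for REL, so FPKM does not compare these genes with each other. TNFAIP3, which encodes the ubiquitin-editing enzyme A20, was the highest of the 10 in both libraries, at 28.2 in Vector and 36.3 in the OE-labelled library. RELA followed at 23.4 and 21.4, and NFKB1 at 14.4 and 16.0. The subunits of the alternative arm were lower, NFKB2 at 3.88 and 4.34 and RELB at 1.90 and 1.98. REL was at 1.39 and 3.44, values that depend on how reads were divided with an overlapping gene, as described with REL. NFKBIA, which encodes the classical inhibitor IkB-alpha, was at 10.0 and 9.28, and NFKBIE at 6.89 and 9.53. TRAF1, at 0.290 and 0.578, and BIRC3, at 0.022 and 0.055, were the lowest. In Vector the neighbours in this order had separate counting intervals apart from RELB and REL. In the OE-labelled library only NFKBIE and NFKBIA overlapped. Beyond counting error, the spread of these levels between cultures is not known.

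**Figure D1:**
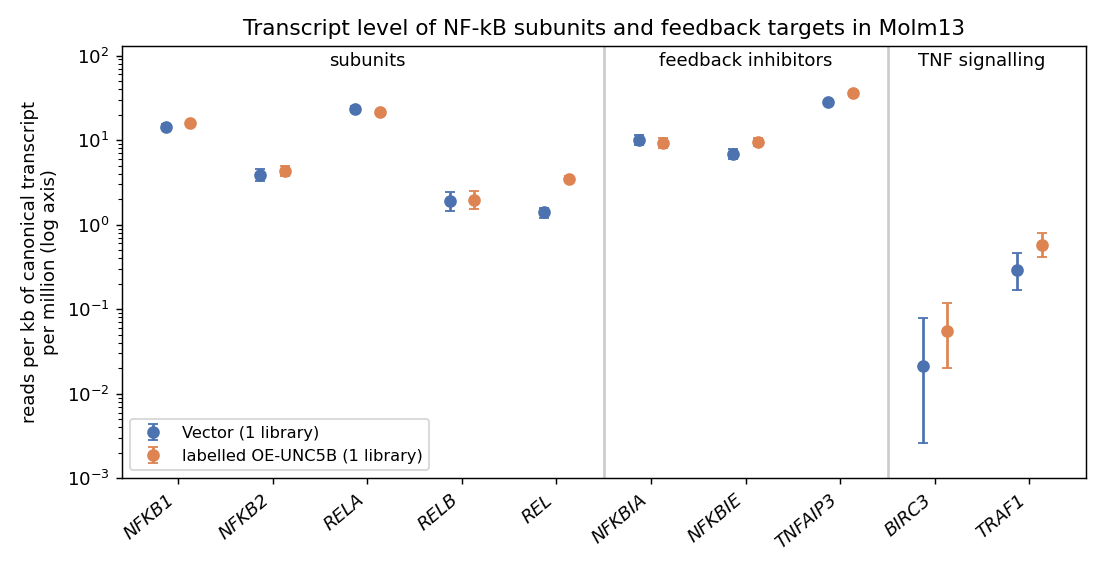
Level of each of the 10 genes, as CPM per kilobase of canonical transcript on a log axis, with 1 point per library and 95% Poisson intervals of the reads. TNFAIP3, RELA and NFKB1 lead in both libraries, BIRC3 is lowest, and REL and TRAF1 show the widest gaps between the libraries among the genes with 10 or more reads.

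Compared between the libraries, 9 of the 10 genes had enough reads, and 1 of the 9, REL, differed by 2-fold or more. With the reads of AC010733.1, a gene inside the last exon of REL, counted with REL, 0 of the 9 did. Over all 15384 genes, 5.15% were higher and 4.79% lower by that rule. At 1.5-fold, REL and TRAF1 were higher and 0 were lower, against 12.9% of all genes higher and 12.5% lower. The counting interval lay above no change for 5 members, NFKB1, NFKBIE, REL, TNFAIP3 and TRAF1, and below it for 0. With the trend over GC content and length subtracted the number was 4, since the interval of NFKB1 then ran from -0.05 to 0.22. Of all genes, 25.1% had an interval above no change and 26.3% an interval below it. The median log2 fold change of the 9 genes was 0.16, against -0.01 for all genes compared. Reads summed over all 10 genes were 4233 in Vector against 6093 in the OE-labelled library, or 0.29 on the log2 scale (0.23 to 0.35). It was 0.21 (0.15 to 0.26) with the reads of AC010733.1 counted and 0.23 (0.16 to 0.31) without TNFAIP3, which has the most reads of the 10. The 5 subunits together had 2008 and 2773 reads, or 0.23 (0.15 to 0.31), but this rests on REL. With the reads of AC010733.1 the sum of the subunits was 2343 and 2903, or 0.07 (-0.01 to 0.15), and without REL it was 1799 and 2166, or 0.03 (-0.06 to 0.12), and both intervals include no change. The 3 feedback inhibitors together had 2206 and 3274 reads, or 0.33 (0.25 to 0.41), and 429 and 585 without TNFAIP3, or 0.21 (0.03 to 0.39).

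**Figure D2:**
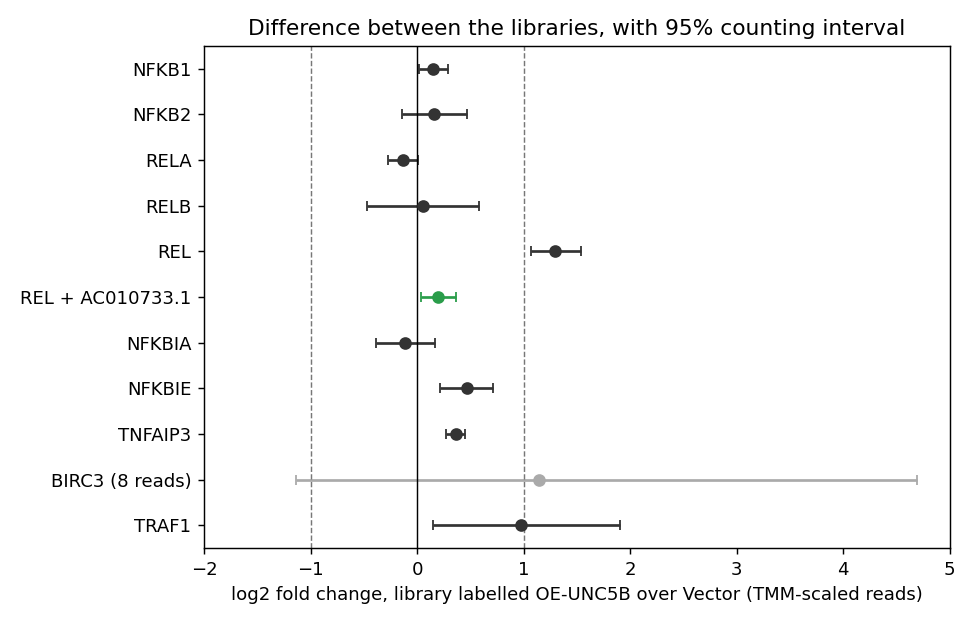
Log2 fold change of each member, OE-labelled library over Vector, on TMM-scaled reads with 0.5 added, with 95% intervals from the reads; dashed lines mark 2-fold. Among the 9 genes compared, REL alone lies beyond 2-fold, and with the reads of AC010733.1 added (green) it lies at 0.20; BIRC3 (grey) has 8 reads.

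REL encodes c-Rel, the subunit most restricted to blood cells. In the GRCh38 annotation REL spans chr2:60881521-60931610 on the plus strand. It had 209 reads in Vector against 607 in the OE-labelled library, or 1.20 and 3.06 FPKM. The log2 fold change was 1.30 (1.07 to 1.53), a ratio of 2.46. The canonical transcript of REL is 11108 bases long with a GC content of 38.4%, and genes of like length and GC content had a median log2 fold change of 0.29. The table also holds AC010733.1, an lncRNA gene of 1 exon and 5702 bases at 60925909 to 60931610, on the same strand. In GENCODE 44, 100% of it lies within the last of the 10 exons of the canonical REL transcript, which runs from 60921763 to 60931612, and past the stop codon, which ends at 60922535. It covers 51.3% of the length of that transcript. AC010733.1 differed in the opposite direction, with 335 reads in Vector against 130 in the OE-labelled library, a log2 fold change of -1.60 (-1.91 to -1.31).

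Added together, REL and AC010733.1 held 544 reads in Vector against 737 in the OE-labelled library. The combined log2 fold change was 0.20 (0.04 to 0.36), a ratio of 1.15. REL took 38.4% of the combined reads in Vector (95% Clopper-Pearson interval 34.3 to 42.7) and 82.4% in the OE-labelled library (79.4 to 85.0). The 2-fold difference of REL thus came with a different division of reads between overlapping genes, and the sum over the locus was not past 1.5-fold. The value of REL is uncertain for this reason, and which RNA the reads came from cannot be told apart in gene counts. Its promoter match is the one printed above.

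**Figure D3:**
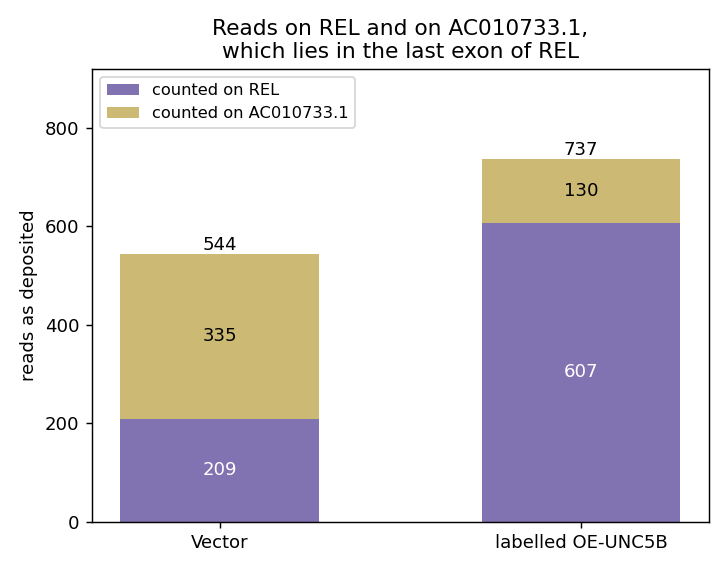
Deposited reads counted on REL and on AC010733.1, a gene inside the last exon of REL, stacked for each library. The total goes from 544 to 737 reads, while the part counted on REL goes from 209 to 607.

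The other subunits differed by less than 1.5-fold. NFKB1, the source of p50 (chr4:102501329-102617302, plus strand), had 789 reads in Vector against 1032 in the OE-labelled library, a log2 fold change of 0.15 (0.02 to 0.29). RELA, which encodes the main activating subunit p65 (chr11:65653596-65663094, minus strand), had 794 and 855 reads. With the difference in library size its log2 fold change was -0.13 (-0.27 to 0.01), and its interval includes no change. With the trend over GC content and length subtracted it was 0.01. For the alternative arm, NFKB2 (chr10:102394110-102402529, plus strand) had 158 and 208 reads, a log2 fold change of 0.16 (-0.15 to 0.47). RELB (chr19:45001430-45038198, plus strand) had 58 and 71 reads, or 0.05 (-0.47 to 0.58). As a ratio the interval of RELB ran from 0.724 to 1.496, so smaller differences were not detectable at this depth.

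Ratios taken within a library do not depend on how the libraries are scaled. The length behind FPKM cancels in the difference of such a log2 ratio between the libraries, so the differences alone are given. The ratio of NFKB2 to NFKB1, the alternative against the classical precursor, differed by 0.01 (interval from the reads -0.32 to 0.34). RELB to RELA differed by 0.18 (-0.33 to 0.70), and NFKBIA to RELA, an inhibitor against its partner, by 0.02 (-0.29 to 0.32). Each of these intervals includes no change. REL to RELA differed by 1.43 (1.16 to 1.70), and by 0.33 (0.12 to 0.54) when the reads of AC010733.1 were counted with REL.

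The 3 feedback inhibitors differed in size and sign. NFKBIA (chr14:35401511-35404749, minus strand) had 211 reads in Vector against 230 in the OE-labelled library, a log2 fold change of -0.11 (-0.39 to 0.16). NFKBIE, which encodes IkB-epsilon, an inhibitor that favours dimers of RELA and REL (chr6:44258166-44265788, minus strand), had 218 and 355 reads (0.47, 0.22 to 0.72). TNFAIP3 (chr6:137867188-137883312, plus strand) had 1777 and 2689 reads (0.36, 0.27 to 0.45), with the narrowest interval of the 10 genes. A20 and IkB-epsilon RNA were 1.28 and 1.38 times as high in the OE-labelled library, while the interval of NFKBIA includes no change. WAKMAR2, an antisense gene that shares 95 exonic bases with TNFAIP3, had 84 and 108 reads, and whether the counting used strand is not given in the sources used here, so their reads over those bases cannot be told apart. The promoters of TNFAIP3 and NFKBIA both carry consensus matches, as printed above.

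BIRC3 and TRAF1 were near the lower end of what could be measured. BIRC3, which encodes cIAP2, a ubiquitin ligase bound to TNF receptor complexes (chr11:102317450-102339403, plus strand), had 2 reads in Vector against 6 in the OE-labelled library. The ratio of its scaled reads was 2.55 with a counting interval of 0.455 to 25.8, so its direction is not known. TRAF1, an adaptor that binds cIAP proteins (chr9:120902393-120929173, minus strand), had 17 and 40 reads, a log2 fold change of 0.97 (0.15 to 1.91), just inside 2-fold. Scaled by library totals or by DESeq2 size factors, TRAF1 passed 2-fold. BIRC2, the close relative of BIRC3 that encodes cIAP1, had 454 and 624 reads, or 8.94 and 10.4 CPM per kilobase, far above BIRC3 in both libraries.

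Around the members, 115 further pathway genes in 7 lists were looked up, of which 94 had enough reads. Of the 94, 3 were higher and 5 lower by 2-fold in the OE-labelled library, and their median log2 fold change was -0.04. By counting interval 28 of the 94 were higher and 32 lower. The background over all genes was 5.15% higher and 4.79% lower by 2-fold, and 25.1% higher and 26.3% lower by counting interval. Among the 12 IKK genes and partners the values ran from -0.58 to 0.42, and 0 of 12 passed 2-fold. Their median was 0.03, and by counting interval 5 were higher and 2 lower. Among 14 other negative regulators 0 passed 2-fold, and by counting interval 4 were higher and 3 lower. The 4 other IkB genes differed in sign. NFKBID was at -0.59 (-0.87 to -0.32) and NFKBIB at -0.16 (-0.34 to 0.03), while NFKBIZ was at 0.35 (0.01 to 0.70) and BCL3, an IkB protein that acts in the nucleus with p50 and p52, at 0.61 (0.19 to 1.05).

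Of 19 adaptors and ubiquitin ligases, XIAP alone passed 2-fold, and by counting interval 8 were higher and 6 lower. The shares of all genes by that interval were 25.1% and 26.3%. XIAP, an inhibitor of caspases that also takes part in NF-kB signalling, had 87 reads in Vector against 453 in the OE-labelled library (2.14, 1.81 to 2.49). Of 13 receptors, TLR7, with 8 and 29 reads, and LY96, the partner of TLR4, with 9 and 36 reads, were higher by 2-fold or more. Their log2 intervals were wide, 0.46 to 2.96 and 0.68 to 3.00. By counting interval 6 of the 13 receptors were higher and 3 lower. Of the ligands, 5 had enough reads and 0 passed 2-fold, and by counting interval 0 were higher and 2 lower. TNF, the classical inducer of the pathway, had 2081 and 1740 reads, a log2 fold change of -0.50 (-0.59 to -0.40).

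The 27 other textbook targets of NF-kB had a median of -0.21, with 0 higher and 5 lower by 2-fold. By counting interval 3 of the 27 were higher and 15 lower, against 25.1% and 26.3% of all genes. The 5 past 2-fold were the chemokines CXCL8, CXCL2, CCL3 and CCL4 and the prostaglandin synthase PTGS2. CXCL8 had 610 reads in Vector against 118 in the OE-labelled library (-2.60, -2.90 to -2.32). CCL3 had 228 and 80 reads (-1.74, -2.13 to -1.37) and CCL4 had 21 and 7 (-1.76, -3.30 to -0.53), and both have near-identical copies with which reads could be shared. CXCL2 had 11 reads and 1 read, a ratio of scaled reads of 0.0771 with a counting interval of 0.00179 to 0.531. PTGS2 had 26 and 8 reads (-1.88, -3.29 to -0.75). The other 22 targets lay between -0.68 for CCL2 and 0.77 for ICAM1, an adhesion molecule with 71 and 143 reads.

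**Figure D4:**
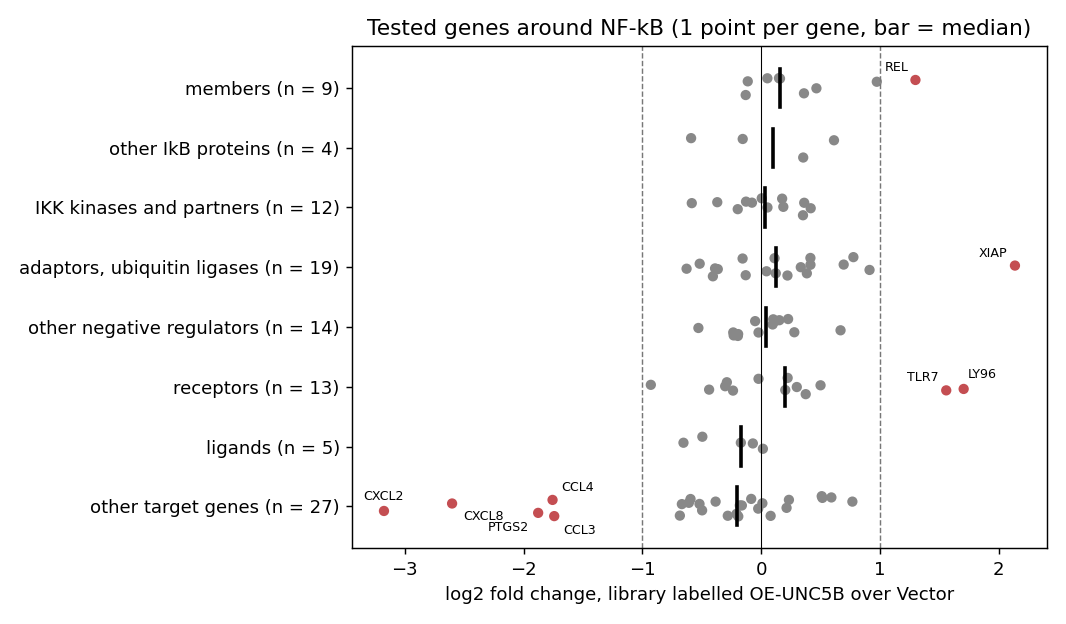
Log2 fold change, OE-labelled library over Vector, of the 9 members and of 94 other pathway genes with at least 10 reads, 1 point per gene in each list, with black bars at the medians and dashed lines at 2-fold. Named red points passed 2-fold: REL, XIAP, TLR7 and LY96 higher, and CXCL8, CXCL2, CCL3, CCL4 and PTGS2 lower.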

How the data were processed

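RNA of MOLM-13 cells was measured in 1 Vector library and 1 OE-labelled (OE-UNC5B) library, prepared with the VAHTS Universal V6 kit and read single-end. The deposited table holds whole-number counts of reads per gene as the authors made them, and the authors' FPKM, which is scaled to the reads counted on genes and to a gene length chosen by the authors. For genes with 10 or more transcripts in GENCODE 44 this length had a median of 3.30 times the canonical transcript, and for genes with 1 transcript 1.00 times. The submitters' processing notes name HISAT2 2.0.4, StringTie 1.3.0, bcl2fastq 2.19 and GRCh38; the counting tool, the annotation release and the use of strand are not given in the sources used here.

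Counts were scaled by TMM (edgeR 4.0.16, R 4.3.3) over all genes. The log2 fold change used 0.5 added reads and genes that reached 10 reads in total. Intervals (95%) are Clopper-Pearson (scipy 1.17.1), Poisson intervals for levels and Woolf intervals for ratios, covering counting error only. A gene was called by its fold alone, since 1 library per group leaves edgeR's quasi-likelihood test without residual degrees of freedom. The steps were run on simulated counts with counting error alone, as the intervals assume. That run says nothing of the spread between cultures. Of 50868 identifiers, 49659 were found in GENCODE 44. All members were named, with UNC5B, the 4 other IkB genes and pathway genes past 2-fold; BIRC2, TNF, CCL2, ICAM1, WAKMAR2, AC010733.1 and the markers singled out were named after their values were seen. The members and lists were chosen with earlier results of these data known.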

Additional observations from a re-analysis of the deposited data

How the results depend on the processing

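Values were recomputed with library totals, with DESeq2 1.42.0 size factors, with 2 reads added, from FPKM (0.1 or 1 added, at least 1 in a library), with no minimum of reads, with a minimum of 50 and for protein-coding genes alone. The addition of AC010733.1 reads to REL and the subtraction of the median log2 fold change in bins of GC content and length were chosen after seeing the data, as were the summed reads without REL or TNFAIP3 and the interval counts under other scalings. Of 150 recomputed values, 35 fold changes of members could not move, since the alternative changes only which genes are kept or only REL. Of the other 115, 97 moved by less than their counting interval or by no more than 1.5 times. The 97 also hold values that could not move, so they overstate the stability. These are the ratios within a library recomputed from read counts, where the length cancels. They are also the member counts with a minimum of 50 reads and for protein-coding genes alone, which kept the same 9 members. The sign differed for 1, RELA, at -0.13 and at 0.01 after subtraction of the GC and length trend.

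The log2 fold change of REL, 1.30, was 0.88 with FPKM and 1 added, 1.004 after subtraction of the GC and length trend, and 0.20 with the AC010733.1 reads; the ratio of REL to RELA then differed by 0.33. The number of members higher by 2-fold, 1, was 2 with library totals, with DESeq2 size factors (both adding TRAF1) and with no minimum (adding BIRC3), and 0 with FPKM and 1 added and with the AC010733.1 reads. At 1.5-fold the number, 2, was 1 with FPKM and 0.1 or 1 added, where TRAF1 is under the minimum, and 1 with the AC010733.1 reads. It was 3 with no minimum (adding BIRC3) and after subtraction of the GC and length trend (adding NFKBIE, at 0.61). Among the 94 pathway genes, 3 were higher; 1 was with FPKM and 1 added and with at least 50 reads. There were 5 lower; 2 were with FPKM and 0.1 or 1 added and with at least 50 reads, and 13 with no minimum, which admits genes with few reads. Other causes were not tested. RELB, TRAF1 and BIRC3 gave no value with FPKM, being under 1. The consensus kB motif in place of the loose motif lowered the genes with a match from 8 to 6.

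No paired analysis was possible because each group had a single library, and leaving out a replicate was not run for the same reason. Depth limits BIRC3, TRAF1 and RELB most.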

Other observations

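The arrangement seen at REL was looked for over the whole table. There were 89 pairs of compared genes in which all exonic bases of a gene lay within exons of another on the same strand (GENCODE 44). In 9 of them the outer gene differed by 2-fold or more between the libraries. In 4 of the 9, REL with AC010733.1, PDXDC2P-NPIPB14P with PDXDC2P, ZBTB20 with AC093010.2 and ZNF90 with AC011447.1, the combined reads did not. In 3 of the 89 pairs both genes passed 2-fold in opposite directions: REL, NFAT5 with AC012321.1, and PDXDC2P-NPIPB14P with PDXDC2P. NFAT5, a transcription factor of the Rel family by its DNA-binding region that responds to salt stress, had 126 reads in Vector against 1019 in the OE-labelled library, while AC012321.1 had 118 and 15. Unlike REL, NFAT5 stayed past 2-fold with the combined reads, at a log2 fold change of 1.84. These pairs were looked up after the values of REL were seen, and the cause of the divided reads was not tested.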
